A study of Caenorhabditis elegans with 9 samples.

Results

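The pals genes are a C. elegans family named for a protein signature shared with the human ALS2CR12 gene. Members were all genes whose symbol is pals- followed by a number, and 38 of the 46926 genes in the count files met that rule, all of them protein coding. RNA was sequenced from whole worms in 9 poly(A)-selected libraries, 3 each of the genotypes labelled PATR1, UNC5 and WT. The study's design text describes young adults of a wild type and of an unc-5(Cys348*) strain, in which the gene of a netrin receptor carries a stop codon. The labels do not tie that allele to either mutant label, do not say what PATR1 stands for, and name no strain, agent or treatment, so the groups are called by their labels here. Whether replicates came from separate cultures is not stated, so p-values cover the scatter of these libraries only, part or all of which may be technical, and culture or exact stage cannot be told apart from genotype.

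The intracellular pathogen response is a set of genes that C. elegans switches on in the intestine when microsporidia or the Orsay virus grow inside its cells. Many pals genes are among its targets, and pals-5 is the usual reporter of the response. Other pals genes control it: pals-22 and pals-17 are known as repressors, pals-25 as the activator opposed by pals-22, and pals-20 and pals-16 as activators opposed by pals-17. The biochemical activity of the encoded proteins is not settled.

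The libraries held 40657619 to 55150409 reads counted to genes in PATR1, 38673206 to 45911861 in UNC5 and 56713370 to 60642199 in WT. Reads that did not map made up 2.86% to 6.02% of reads in PATR1, 0.667% to 0.937% in UNC5 and 0.621% to 0.629% in WT. The gene unc-5, the check on the labels, had 13.8, 13.8 and 12.75 CPM in PATR1, 10.1, 9.88 and 10.3 CPM in UNC5, and 16.7, 18.4 and 18.3 CPM in WT. Both mutant groups lay below WT, with log2 fold changes of -0.40 ± 0.054 in PATR1 and -0.82 ± 0.058 in UNC5 (± SE, edgeR adjusted p = 4.5e-08 and 2.9e-14). CPM are a gene's counts scaled to a common library size with TMM factors. Markers of intestine, epidermis, body wall muscle, neurons, germline and sperm were all detected in every group, and the labelled tissue is the whole body.

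As a family, pals RNA was less abundant in PATR1 and in UNC5 than in WT. The summed level of the 38 genes was 133.6 to 134.4 CPM in PATR1, 129.03 to 131.1 CPM in UNC5 and 249.9 to 261.6 CPM in WT. The decrease lay in named genes: pals-14, pals-6, pals-39, pals-26, pals-37, pals-33, pals-32 and others that were well expressed in WT, while pals-23 and pals-24 were as high or higher in the mutant groups. With all 9 libraries in the fit, edgeR's quasi-likelihood test called 17 pals genes lower and 0 higher in PATR1 than in WT, among 32 with enough counts to be tested. A gene is called where its adjusted p is under 0.05 and its log2 fold change exceeds 1 in size, and the same rule called 16.5% of all 17512 tested genes, 10.5% lower and 6.02% higher. In UNC5 the same 17 genes were called lower than in WT and 0 higher, against 20.8% of all genes called, 13.7% lower and 7.09% higher. These comparisons share the WT libraries and are therefore not independent of each other. No pals gene passed the fold limit upwards at an unadjusted p below 0.05 either, or with DESeq2 (0 in each comparison). Without the fold limit, 2 genes were higher in PATR1 and 6 in UNC5 at that unadjusted p.

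On the adjusted p alone, 26 of the 32 pals genes fell and 2 rose in PATR1, where 83.6% of all tested genes passed, 44.9% lower and 38.7% higher. In UNC5, 21 fell and 5 rose, where 76.8% of all genes passed, 27% lower and 49.8% higher. The libraries of PATR1 and WT did not overlap for 27 of the 32 genes, against 84% of all genes, and those of UNC5 and WT for 26, against 77.9%. Separation of the libraries was thus common over all genes. The filter on low counts bears on the counts: pals-5, pals-8, pals-9, pals-15, pals-28 and pals-29 reached it only through the WT libraries, where they were high, and all 6 are among the 17. Of the other 26 tested genes, 11 were called lower in each comparison with WT. The median log2 fold change of these 26 was -0.77 in PATR1 and -0.46 in UNC5, where all tested genes had -0.11 and 0.16. With the 6 included it was -1.42 in PATR1 and -1.19 in UNC5, values that the filter itself lowers. The medians and shares over all tested genes still include genes that reached the filter only through WT. They are therefore not a matched background for the 26. The remaining 6 members were not tested, with 0 to 19 pooled counts per group: pals-7, pals-10, pals-11, pals-12, pals-13 and pals-21. Of these, pals-12 had 0 counts in all 9 libraries. Its exons lie almost wholly within those of pals-3 on the same strand (1185 of 1191 bases), where a read cannot be given to either gene, so its level and that of pals-3 are uncertain.

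**Figure D1:**
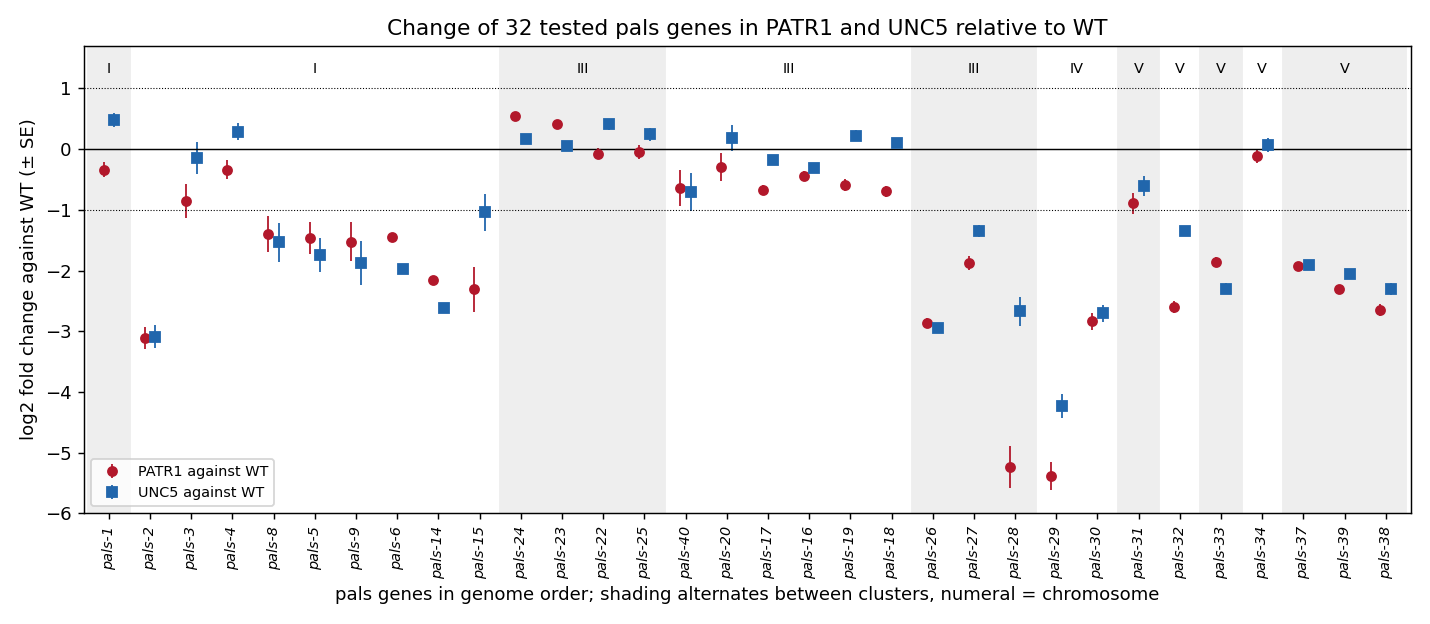
Log2 fold change against WT (± SE) of the 32 tested pals genes in genome order, PATR1 as circles and UNC5 as squares, with shading that alternates between clusters and dotted lines at a change of 1 in either direction. The 4 genes around pals-22 and the 6 tested genes around pals-17 lie between -0.71 and 0.55, while all members of the clusters holding pals-26, pals-29 and pals-37 lie below -1.

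The decrease differed between the clusters in which the family lies (coordinates from the Ensembl annotation of WBcel235). Members stood on chromosomes I (15 genes), III (14), IV (2) and V (7). Where neighbours no more than 20 kb apart are joined, 33 of the 38 fell into 6 clusters and 5 stood alone. The largest cluster held 14 genes on chromosome I, from 13083321 to 13144623, and includes pals-2 to pals-15. Its summed level was 19.4, 20.1 and 20.4 CPM in PATR1, 14.7, 16.3 and 16.1 CPM in UNC5 and 66.04, 68.2 and 63.7 CPM in WT, so every mutant library lay below every WT library. Of its 9 tested genes 7 were called lower in each mutant group, against 10.5% of all tested genes in PATR1 and 13.7% in UNC5. Among the 7, pals-5, pals-8, pals-9 and pals-15 reached the low-count filter only through the WT libraries, so the filter itself raises this count.

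Chromosome III carries 3 clusters that differed. The 3 genes pals-26, pals-27 and pals-28, from 4375154 to 4387757, were all called lower in each mutant group and summed to 4.37 ± 0.615 CPM in PATR1, 5.03 ± 0.0965 CPM in UNC5 and 27.7 ± 1.82 CPM in WT (SD, n = 3 each). Of these, pals-28 reached the low-count filter only through the WT libraries. The 4 genes pals-22, pals-23, pals-24 and pals-25, from 120435 to 137975, had 0 calls, and their sum was 71.8 ± 0.976 CPM in PATR1, 58.9 ± 1.65 CPM in UNC5 and 53.5 ± 0.217 CPM in WT. The 7 genes around pals-17, from 1376945 to 1406263, also had 0 calls among 6 tested, with 16.7 ± 0.459 CPM in PATR1, 24.4 ± 0.439 CPM in UNC5 and 25.3 ± 0.19 CPM in WT. Of all tested genes, 16.5% were called in PATR1 (10.5% lower) and 20.8% in UNC5 (13.7% lower). For so few genes, 0 calls is near that share.

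On chromosome IV, pals-29 and pals-30 (14539685 to 14551970) summed to 0.659 ± 0.0811 CPM in PATR1, 0.801 ± 0.0696 CPM in UNC5 and 7.35 ± 0.237 CPM in WT, and both were called lower in each mutant group. Here pals-29 reached the low-count filter only through the WT libraries. On chromosome V, pals-37, pals-38 and pals-39 (12437440 to 12446995) summed to 10.6 ± 0.164 CPM in PATR1, 11.9 ± 0.382 CPM in UNC5 and 48.9 ± 1.83 CPM in WT, and all 3 were called lower in each. Of the 5 genes that stand alone, pals-32 and pals-33 were called lower in each mutant group, and pals-1, pals-31 and pals-34 were not called in either. Over all tested genes, 10.5% were called lower in PATR1 and 13.7% in UNC5. Neighbours are not independent measurements, because they can share sequence and regulation, and reads that fit several places in the genome were counted for no gene. How much such reads take from each member was not analysed here.

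**Figure D2:**
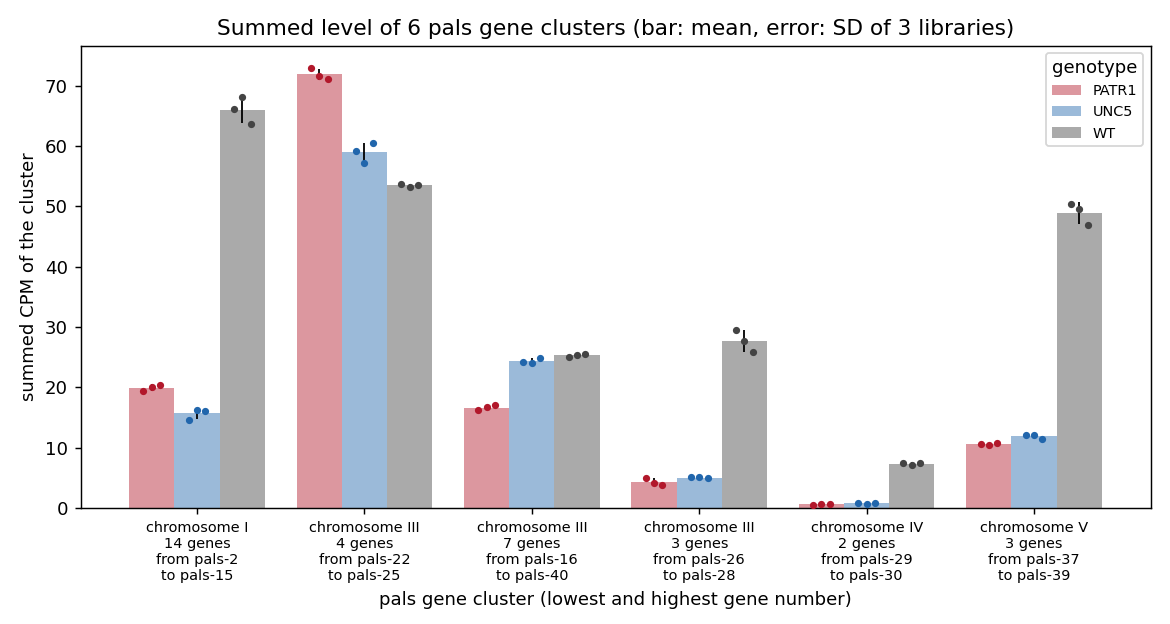
Summed CPM of the 6 pals clusters, with bars for the mean and error bars for the SD of 3 libraries, and a point for each library. In 4 clusters all mutant libraries lie far below the WT libraries, while the cluster from pals-22 to pals-25 is highest in PATR1 (71.8 CPM) and lowest in WT (53.5 CPM).

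The make-up of the family's RNA shifted with these changes. The cluster from pals-22 to pals-25 made up 53.7% ± 0.882 of all pals CPM in PATR1, 45.4% ± 0.963 in UNC5 and 20.8% ± 0.515 in WT (SD, n = 3 each). The chromosome I cluster made up 14.9% ± 0.338 in PATR1, 12.1% ± 0.666 in UNC5 and 25.6% ± 0.496 in WT. Levels of different genes are compared here per kilobase of exon. In PATR1 the order began with pals-24 (30.4 ± 0.794 CPM per kb), pals-23 (23.4 ± 0.412), pals-6 (7.54 ± 0.377) and pals-17 (6.34 ± 0.635 CPM per kb). In UNC5 it began with pals-24 (23.3 ± 1.2 CPM per kb), pals-23 (18.3 ± 0.377), pals-17 (8.91 ± 0.391) and pals-22 (5.69 ± 0.721 CPM per kb). In WT it began with pals-14 (24.5 ± 0.456 CPM per kb), pals-24 (20.7 ± 0.472), pals-6 (20.5 ± 0.817) and pals-23 (17.5 ± 0.302 CPM per kb), of which pals-24 and pals-6 did not differ beyond their spread.

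Among the controllers, the pair pals-22 and pals-25 stood near WT in PATR1 and somewhat above it in UNC5. The repressor gene pals-22 (WBGene00016216, chromosome III, plus strand, 132418 to 134401) had 3.64, 3.69 and 3.66 CPM in PATR1, 4.63, 4.79 and 5.82 CPM in UNC5, and 4.14, 3.98 and 3.46 CPM in WT. The UNC5 libraries all lay above the WT libraries, and those of PATR1 fell within the WT range. Its log2 fold change against WT was -0.07 ± 0.097 in PATR1 (adjusted p = 0.489) and 0.41 ± 0.093 in UNC5 (adjusted p = 0.000212). The activator gene pals-25, which starts 93 bases downstream of pals-22, had 2.44, 2.6 and 2.42 CPM in PATR1, 3.44, 2.75 and 2.98 CPM in UNC5, and 2.23, 2.64 and 2.82 CPM in WT. Its libraries overlapped between each mutant group and WT. The change was -0.05 ± 0.11 in PATR1 (adjusted p = 0.677) and 0.25 ± 0.11 in UNC5 (adjusted p = 0.0406). That pass in UNC5 was lost under several settings, among them DESeq2 (adjusted p = 0.373) and RLE factors (0.234), and without UNC5 replicate 1 (0.238) or replicate 3 (0.0582) or WT replicate 1 (0.225) or replicate 2 (0.0534).

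The neighbours pals-23 and pals-24, whose roles are not known, were the most abundant members in PATR1 and UNC5. pals-24 had 30.8 ± 0.803 CPM in PATR1, 23.6 ± 1.22 CPM in UNC5 and 21 ± 0.478 CPM in WT, and rose in PATR1 (0.55 ± 0.045, adjusted p = 8.3e-13) and in UNC5 (0.17 ± 0.047, adjusted p = 0.00154). The rise in UNC5 was near the median change of all tested genes there, 0.16. pals-23 had 34.9 ± 0.613 CPM in PATR1, 27.2 ± 0.561 CPM in UNC5 and 26.1 ± 0.449 CPM in WT, and rose in PATR1 (0.42 ± 0.041, adjusted p = 4.8e-11). In UNC5 its change of 0.06 ± 0.042 did not pass (adjusted p = 0.209).

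In the cluster around pals-17, falls in PATR1 were moderate. The repressor gene pals-17 had 4.93, 6.03 and 5.57 CPM in PATR1, 8.07, 7.79 and 7.4 CPM in UNC5, and 9.3, 8.45 and 8.47 CPM in WT. All mutant libraries lay below the WT libraries, those of PATR1 by more. It fell by 0.67 on the log2 scale in PATR1 (SE 0.075, adjusted p = 9.96e-10) and by 0.17 in UNC5 (SE 0.071, adjusted p = 0.0269). The pass in UNC5 was lost without UNC5 replicate 3 (adjusted p = 0.123) or WT replicate 1 (0.116). The activator gene pals-16 had 3.71, 3.71 and 3.99 CPM in PATR1, 3.87, 4.23 and 4.38 CPM in UNC5, and 5.23, 5.2 and 5.14 CPM in WT. Again no mutant library reached the WT range, and pals-16 fell by 0.44 in PATR1 (SE 0.081, adjusted p = 9.7e-06) and by 0.32 in UNC5 (SE 0.081, adjusted p = 0.000799).

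The other activator gene, pals-20, was scarce, with 0.339, 0.438 and 0.51 CPM in PATR1, 0.688, 0.541 and 0.591 CPM in UNC5, and 0.557, 0.569 and 0.476 CPM in WT. These are 15 to 34 counts per library, and its groups overlapped with WT. Its changes of -0.30 ± 0.23 in PATR1 and 0.18 ± 0.22 in UNC5 did not pass (adjusted p = 0.234 and 0.452). Its exons overlap those of Y82E9BR.5 on the opposite strand by 502 bases, so counts without strand do not measure it.

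Of the other genes there, pals-18 and pals-19 fell in PATR1, by 0.69 and 0.59 on the log2 scale (SE 0.089 and 0.1, adjusted p = 2.1e-08 and 3.6e-06). In UNC5, pals-19 rose by 0.22 (SE 0.093, adjusted p = 0.0311), where the median of all tested genes was 0.16. The change of 0.10 ± 0.082 in pals-18 did not pass there (adjusted p = 0.288). The neighbours pals-18 and pals-19 share 53 bases of exon on the same strand, whose reads cannot be given to either. pals-40, at the cluster's edge, fell by 0.64 in PATR1 and by 0.71 in UNC5 (SE 0.3 and 0.31, adjusted p = 0.0486 and 0.0379). It was scarce, with 8 to 13 counts per mutant library and 16 to 27 in WT, and its PATR1 and WT libraries overlapped.

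**Figure D3:**
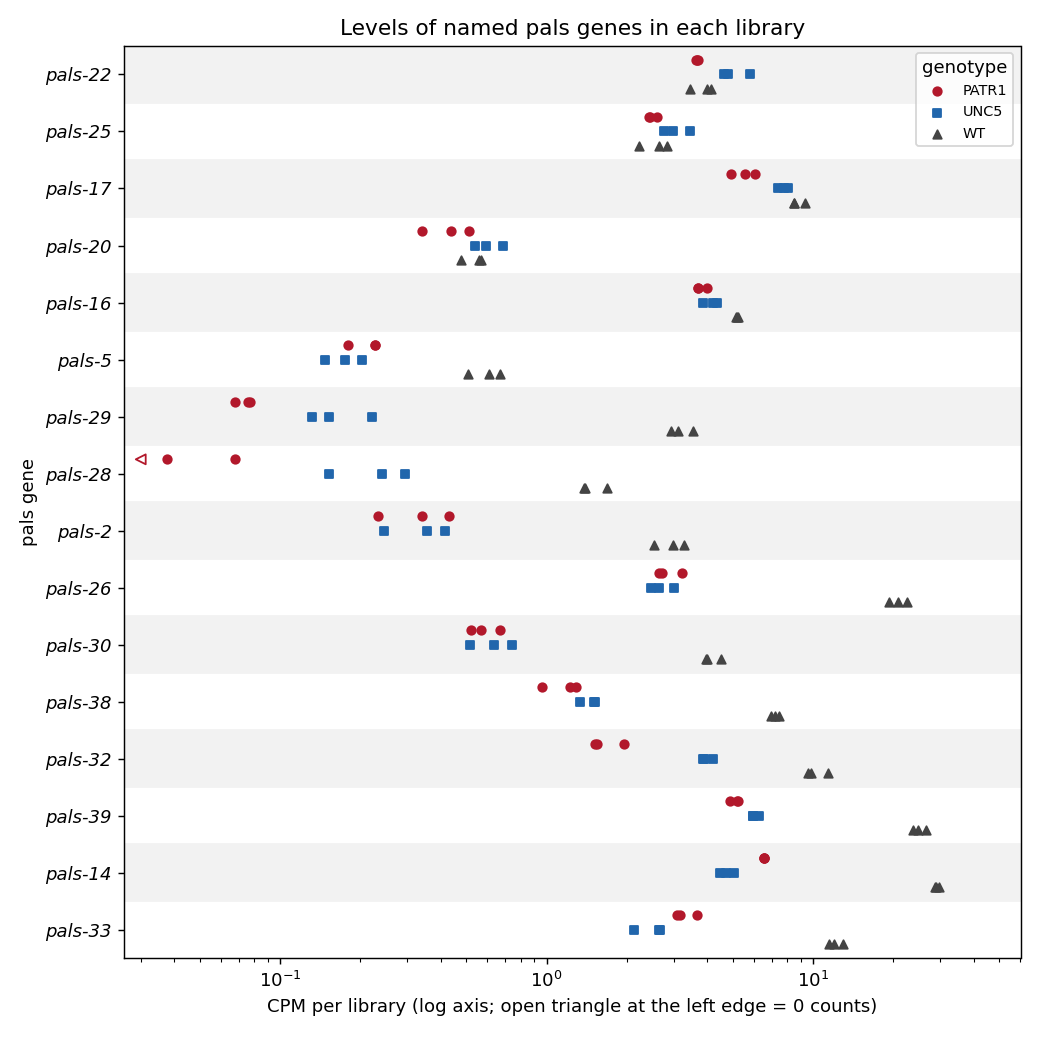
Level of 16 named pals genes in each of the 9 libraries, in CPM on a log axis, with PATR1 as circles above UNC5 as squares above WT as triangles. For the 10 genes from pals-29 down, and for pals-5, every mutant library lies left of every WT library, while pals-22, pals-25 and pals-20 overlap with WT in PATR1.

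The reporter gene pals-5 (WBGene00007659, chromosome I, minus strand, 13130813 to 13132466) was scarce in all groups. It had 0.226, 0.18 and 0.227 CPM in PATR1, 0.204, 0.147 and 0.175 CPM in UNC5, and 0.608, 0.669 and 0.508 CPM in WT. These are 7 to 12 counts per library in PATR1, 6 to 8 in UNC5 and 32 to 40 in WT. The gene reached the low-count filter only through the WT libraries. All mutant libraries lay below the WT libraries. It fell by 1.47 on the log2 scale in PATR1 (SE 0.26, adjusted p = 7.45e-06) and by 1.75 in UNC5 (SE 0.28, adjusted p = 1.79e-06).

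Within the chromosome I cluster, the well-expressed genes fell as well. pals-14 had 6.51, 6.52 and 6.56 CPM in PATR1, 5.04, 4.47 and 4.73 CPM in UNC5, and 29.0, 29.6 and 28.6 CPM in WT. The groups were far apart relative to the spread within each, and the pooled level was 4.45-fold lower in PATR1 and 6.12-fold lower in UNC5 than in WT (log2 fold changes -2.15 ± 0.055 and -2.61 ± 0.059, adjusted p = 4.95e-26 and 1.23e-27). pals-6 had 10.9 ± 0.547 CPM in PATR1, 7.58 ± 0.766 CPM in UNC5 and 29.8 ± 1.18 CPM in WT (log2 fold changes -1.44 ± 0.056 and -1.97 ± 0.06 in PATR1 and UNC5).

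In the same cluster, pals-2 had 0.43, 0.232 and 0.34 CPM in PATR1, 0.356, 0.246 and 0.416 CPM in UNC5, and 2.99, 3.28 and 2.54 CPM in WT. No mutant library came near the WT range. The log2 fold changes were -3.11 ± 0.18 in PATR1 and -3.09 ± 0.19 in UNC5 (adjusted p = 1.7e-16 and 4.6e-16). The scarcer pals-8 (-1.40 ± 0.3 in PATR1 and -1.53 ± 0.32 in UNC5) and pals-9 (-1.52 ± 0.33 in PATR1 and -1.88 ± 0.36 in UNC5) were also called lower in each. Both reached the low-count filter only through the WT libraries. pals-4 was not called, at -0.34 ± 0.15 in PATR1 (adjusted p = 0.0397) and 0.29 ± 0.14 in UNC5 (adjusted p = 0.0594), nor was pals-3, at -0.85 in PATR1 (adjusted p = 0.00671) and -0.15 in UNC5 (adjusted p = 0.61).

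The trio on chromosome III also varied within itself. pals-26 had 3.23, 2.63 and 2.72 CPM in PATR1, 3, 2.46 and 2.65 CPM in UNC5, and 22.5, 20.9 and 19.2 CPM in WT, and its log2 fold changes were -2.86 ± 0.08 in PATR1 and -2.95 ± 0.083 in UNC5 (adjusted p = 8.4e-25 and 5.9e-25). A pseudogene, WBGene00045188, overlaps its exons on the same strand by 170 bases. pals-27 had 1.47 ± 0.307 CPM in PATR1, 2.1 ± 0.208 CPM in UNC5 and 5.35 ± 0.0351 CPM in WT. pals-28 had 3, 0 and 2 counts in PATR1, 6, 12 and 11 counts in UNC5, and 100, 83 and 87 counts in WT, which is 0.0352 ± 0.034 CPM in PATR1, 0.229 ± 0.0717 CPM in UNC5 and 1.49 ± 0.175 CPM in WT. PATR1 was lowest, with no overlap among the 3 groups. pals-28 reached the low-count filter only through the WT libraries. Its log2 fold changes were -5.24 ± 0.34 in PATR1 and -2.67 ± 0.24 in UNC5 (adjusted p = 2.9e-15 and 6.9e-12), and without PATR1 replicate 1 the value in PATR1 was -5.94.

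pals-29 on chromosome IV showed the largest change in each comparison with WT among the pals genes tested. It reached the low-count filter only through the WT libraries, where it was high, so its place among the tested genes already favours a fall. It had 0.0679, 0.0773 and 0.0756 CPM in PATR1, 0.153, 0.221 and 0.131 CPM in UNC5, and 3.53, 3.11 and 2.94 CPM in WT. These are 3 to 4 counts per library in PATR1, 6 to 9 in UNC5 and 185 to 209 in WT, with no overlap. The pooled level was 43.3-fold lower in PATR1 and 19.1-fold lower in UNC5 than in WT (log2 fold changes -5.39 ± 0.23 and -4.23 ± 0.2, adjusted p = 3.9e-20 and 5.1e-19). Its neighbour pals-30 had 0.52, 0.67 and 0.567 CPM in PATR1, 0.637, 0.516 and 0.744 CPM in UNC5, and 3.98, 3.96 and 4.52 CPM in WT (log2 fold changes -2.83 ± 0.14 in PATR1 and -2.70 ± 0.14 in UNC5). Here PATR1 and UNC5 overlapped, and both lay below WT.

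On chromosome V, pals-39 had 5.18, 5.21 and 4.87 CPM in PATR1, 5.93, 6.24 and 5.93 CPM in UNC5, and 26.5, 24.8 and 23.7 CPM in WT. pals-38 had 1.22, 1.29 and 0.963 CPM in PATR1, 1.5, 1.52 and 1.33 CPM in UNC5, and 6.94, 7.46 and 7.17 CPM in WT. In each, the groups did not overlap, and the log2 fold changes were -2.30 ± 0.062 and -2.05 ± 0.061 for pals-39 and -2.65 ± 0.1 and -2.31 ± 0.1 for pals-38 in PATR1 and UNC5. pals-37 fell by 1.93 in PATR1 and 1.91 in UNC5 (SE 0.072 and 0.073, adjusted p = 1.32e-21 and 2.04e-21). The antisense RNA gene anr-30 overlaps 925 bases of the exons of pals-37, reads on the opposite strand lie over the whole cluster, and with counts that ignore strand the changes of pals-38 shrank to -1.84 in PATR1 and -1.25 in UNC5, and that of pals-37 to -1.31 in UNC5.

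Of the genes that stand alone, pals-33 had 3.17, 3.09 and 3.66 CPM in PATR1, 2.67, 2.63 and 2.12 CPM in UNC5, and 12, 12.9 and 11.5 CPM in WT (log2 fold changes -1.86 ± 0.081 in PATR1 and -2.30 ± 0.088 in UNC5). pals-32 had 1.52, 1.55 and 1.95 CPM in PATR1, 3.87, 3.91 and 4.2 CPM in UNC5, and 11.4, 9.79 and 9.57 CPM in WT. It was graded over the genotypes, lowest in PATR1 and intermediate in UNC5, with no overlap between any of the groups (log2 fold changes -2.60 ± 0.098 in PATR1 and -1.35 ± 0.084 in UNC5). pals-31 fell by 0.89 in PATR1 (SE 0.17, adjusted p = 1.56e-05) and by 0.61 in UNC5 (SE 0.17, adjusted p = 0.00131). pals-34 showed no change that passed, at -0.12 ± 0.11 in PATR1 and 0.07 ± 0.11 in UNC5 (adjusted p = 0.332 and 0.584).

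The test of PATR1 against UNC5 shows where the mutant groups differed. edgeR called 4 pals genes lower in PATR1 than in UNC5 and 0 higher, among the same 32, while 20.9% of all tested genes were called, 11.5% lower and 9.46% higher. The share of pals genes called here was 12.5%. No pals gene passed the fold limit upwards at an unadjusted p below 0.05 or with DESeq2, and 5 were higher at that unadjusted p without the limit. The smallest adjusted p of the 4 was that of pals-32, 2.37-fold lower in PATR1 in pooled counts (log2 fold change -1.24 ± 0.12, adjusted p = 7.15e-11). The others were pals-28 (-2.57 ± 0.58, adjusted p = 0.000176, and -3.27 without PATR1 replicate 1), pals-15 (-1.27 ± 0.48, adjusted p = 0.0161) and pals-29 (-1.16 ± 0.49, adjusted p = 0.0348). These rest on at most 12 counts in any PATR1 or UNC5 library, and pals-15 falls outside the rule for named genes and is named for completeness of the count.

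The calls of pals-15 and pals-29 were lost with DESeq2 (adjusted p = 0.0572 and 0.064) and without a low-count filter (0.056 and 0.0995). They were also lost without UNC5 replicate 2 (0.0696 and 0.157) and without PATR1 replicate 3 (0.051 and 0.0696), and that of pals-29 without PATR1 replicate 1 (0.0725) or replicate 2 (0.0548). When the 6 PATR1 and UNC5 libraries alone were fitted, pals-15, pals-28 and pals-29 had too few counts to be tested, and pals-32 was the remaining call.

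On the adjusted p alone, 15 of the 32 pals genes were lower and 5 higher in PATR1 than in UNC5, where 78.7% of all genes passed, 40.9% lower and 37.8% higher. The libraries of the mutant groups did not overlap for 21 of the 32, against 79.5% of all genes. The higher ones were pals-6 (0.53 ± 0.07), pals-14 (0.46 ± 0.075), pals-33 (0.44 ± 0.11), pals-24 (0.38 ± 0.047) and pals-23 (0.36 ± 0.042). Among the lower ones were the repressor genes pals-22 (-0.48 ± 0.098, adjusted p = 5.6e-05) and pals-17 (-0.49 ± 0.08, adjusted p = 1.65e-06). The activator gene pals-25 was lower too (-0.30 ± 0.12, adjusted p = 0.0206). The activator genes pals-20 (-0.48 ± 0.24, adjusted p = 0.0698) and pals-16 (-0.13 ± 0.09, adjusted p = 0.195) did not pass. For pals-5 the difference was 0.28 ± 0.38 (adjusted p = 0.521), for pals-26 0.08 ± 0.12 (0.52) and for pals-2 -0.02 ± 0.31 (0.965), so those differences were within their errors.

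**Figure D4:**
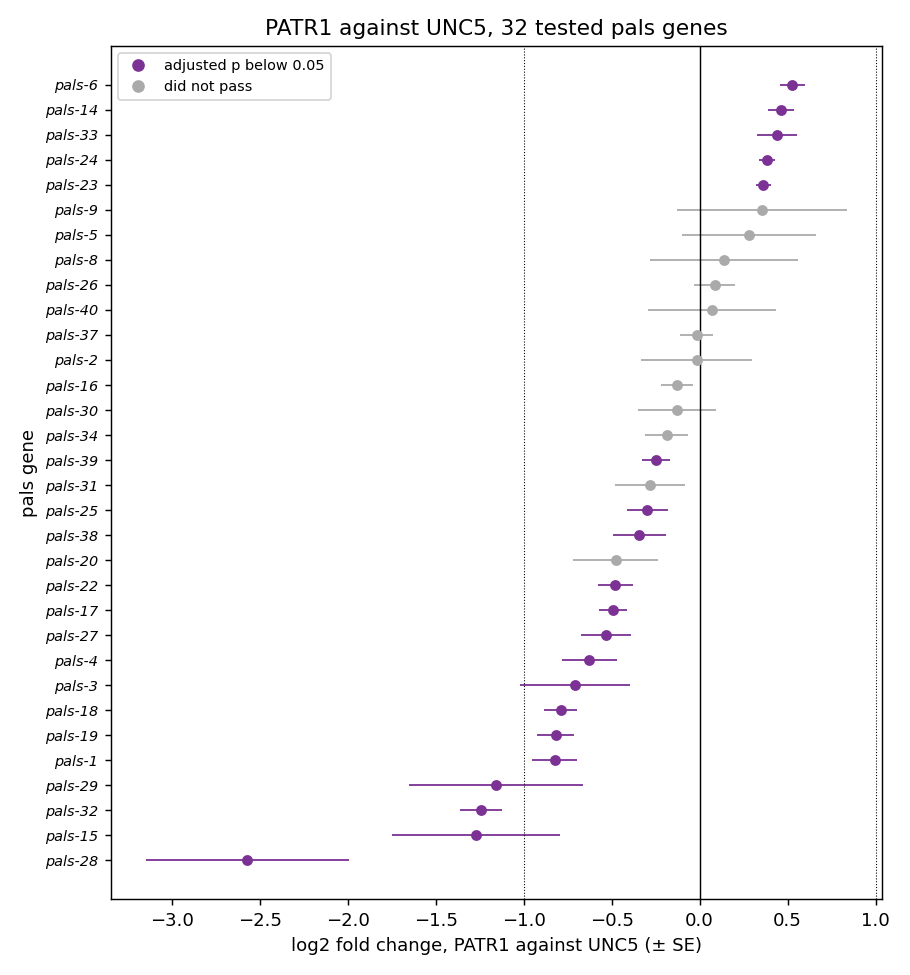
Log2 fold change of PATR1 against UNC5 (± SE) for the 32 tested pals genes in order of size, with purple points for an adjusted p below 0.05 and grey points for the rest, and dotted lines at a change of 1. Most genes lie within 1 of zero, and pals-28, pals-15, pals-32 and pals-29 lie below -1.

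Genes of the response outside the family moved in part in the same direction. CUL-6, a cullin, forms a ubiquitin ligase with the Skp1-related adaptors SKR-3, SKR-4 and SKR-5, the RING protein RCS-1 and F-box proteins such as FBXA-75 and FBXA-158. Of these 7 genes, 6 fell and 1 rose in PATR1, and 5 fell and 2 rose in UNC5, by the adjusted p alone, which 44.9% of all genes passed lower and 38.7% higher in PATR1, and 27% lower and 49.8% higher in UNC5. With the fold limit, 2 were called lower in PATR1 and 3 in UNC5, against 10.5% and 13.7% of all tested genes. The medians were -0.74 in PATR1 and -0.64 in UNC5, where all tested genes had -0.11 and 0.16. fbxa-75 had 0.061 CPM in PATR1, 0.145 CPM in UNC5 and 3 CPM in WT on average, with log2 fold changes of -5.61 ± 0.25 and -4.36 ± 0.21 (adjusted p = 1.1e-19 and 1.5e-18). With 2 to 9 counts per mutant library against 172 to 187 in WT, it reached the low-count filter only through the WT libraries. Its place among the tested genes thus already favours a fall. skr-5 fell by 1.62 in PATR1 and 1.63 in UNC5 (SE 0.076 and 0.077, adjusted p = 5.3e-19 and 7.8e-19). skr-4 fell by 0.81 in PATR1 and 1.09 in UNC5 (SE 0.05 and 0.052), and rcs-1 by 0.74 and 0.33 (SE 0.044 and 0.043). cul-6 itself was higher in each, by 0.19 ± 0.056 and 0.34 ± 0.055 (adjusted p = 0.00294 and 1.5e-06).

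Of the other response genes outside the family, 4 had enough counts. eol-1, a relative of the mammalian RNA-decapping enzyme gene DXO, had 2.69 CPM in PATR1, 3.87 CPM in UNC5 and 10.1 CPM in WT on average (log2 fold changes -1.91 ± 0.08 and -1.39 ± 0.075, adjusted p = 2.6e-20 and 2.9e-17). F26F2.1 fell by 1.84 and 1.20 (SE 0.17 and 0.15) in PATR1 and UNC5, and F26F2.3 was scarce and also called lower, at 0.0771 CPM in PATR1, 0.165 CPM in UNC5 and 0.362 CPM in WT, while sdz-6 changed by -0.10 ± 0.14 in PATR1 (adjusted p = 0.514) and fell by 0.58 in UNC5 (SE 0.15, adjusted p = 0.000925). Of these, F26F2.3 reached the low-count filter only through the WT libraries. The other 14 genes of that list carry clone names that the RefSeq gene table gives to pals genes, and are counted there.

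The regulators outside the family changed less, and none was called. Of 5, 2 rose and 3 fell in PATR1, and 3 rose and 1 fell in UNC5, by the adjusted p alone. Of all genes, 38.7% rose and 44.9% fell by that rule in PATR1, and 49.8% rose and 27% fell in UNC5, so these counts are near the background. drh-1, whose product senses viral RNA, rose by 0.41 in PATR1 (SE 0.035, adjusted p = 2.6e-12) and by 0.09 in UNC5 (SE 0.036, adjusted p = 0.0186). lin-35, the Retinoblastoma homolog and a repressor of the response, rose by 0.76 and 0.37 (SE 0.034 and 0.035, adjusted p = 1.6e-19 and 3.0e-11). sta-1, a STAT homolog that also represses it, fell by 0.67 and 0.21 (SE 0.061 and 0.058, adjusted p = 8.2e-12 and 0.00141). pnp-1, the gene of a purine enzyme that is a further repressor, fell by 0.10 in PATR1 (SE 0.034, adjusted p = 0.00733) and rose by 0.37 in UNC5 (SE 0.034, adjusted p = 1.8e-11). zip-1, a transcription factor gene needed for part of the induction, fell by 0.23 in PATR1 (SE 0.046, adjusted p = 2.7e-05), and in UNC5 its change of -0.09 ± 0.045 did not pass (adjusted p = 0.0664). Of the 3 virus susceptibility genes sid-3, viro-2 and drl-1, viro-2 fell in both mutant groups (-0.30 ± 0.065 in PATR1 and -0.20 ± 0.065 in UNC5), drl-1 fell in PATR1 (-0.12 ± 0.052) and rose in UNC5 (0.13 ± 0.051), and sid-3 did not pass in either.

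**Figure D5:**
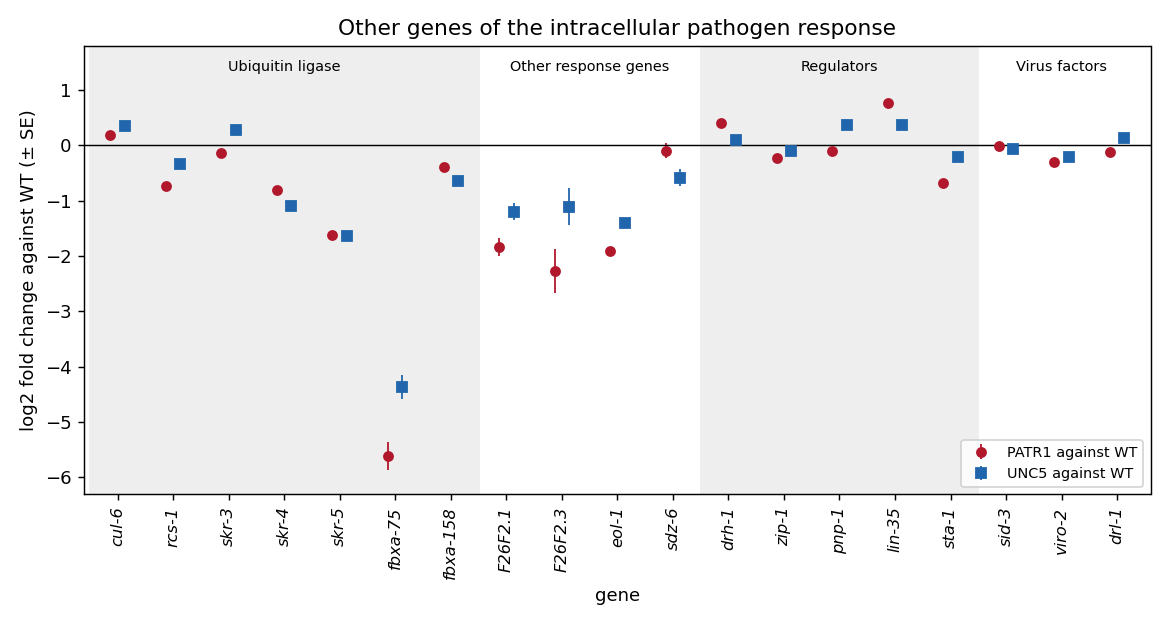
Log2 fold change against WT (± SE) of 19 tested genes of the response outside the pals family, PATR1 as circles and UNC5 as squares, grouped by role. fbxa-75 lies lowest in both comparisons, skr-5, eol-1 and F26F2.1 lie below -1 in both, and the regulators and virus factors lie between -0.67 and 0.76.

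The chitinase-like chil genes, which C. elegans induces on contact with oomycetes and which pals-22 and pals-25 are also known to control, did not follow a single direction. Of 26, 21 were tested: 2 rose and 12 fell in PATR1, and 7 rose and 7 fell in UNC5, by the adjusted p alone. The medians were -0.43 in PATR1 and 0.13 in UNC5, where all tested genes had -0.11 and 0.16. Against all genes, of which 44.9% fell and 38.7% rose in PATR1 and 27% fell and 49.8% rose in UNC5, the share that fell in UNC5 is near the background. chil-17 had 0.0753 CPM in PATR1, 1.7 CPM in UNC5 and 0.375 CPM in WT on average, and chil-19 fell in both mutant groups (-1.29 ± 0.12 in PATR1 and -1.27 ± 0.13 in UNC5).

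In whole-worm RNA, fewer cells of a type and less RNA per cell cannot be told apart. Of 7 intestine markers tested, 6 fell and 0 rose in PATR1 and 4 fell and 1 rose in UNC5, with medians of -0.58 and -0.15. By the same rule, the adjusted p alone, 44.9% of all genes fell and 38.7% rose in PATR1, and 27% fell and 49.8% rose in UNC5. The median of all tested genes was -0.11 in PATR1 and 0.16 in UNC5. The intestine markers summed to 6344 to 6502 CPM in PATR1, 6227 to 6673 CPM in UNC5 and 6429 to 7072 CPM in WT. Most of that sum was asp-1 (5016, 4537 and 4781 CPM on average), whose change passed in neither mutant group. Below it, ges-1, ifb-2, elt-2 and mtl-1 fell in both. The more abundant act-5 and vha-6 fell in PATR1 (-0.58 ± 0.037 and -0.16 ± 0.034). In UNC5, vha-6 rose (0.12 ± 0.034) and act-5 did not pass (-0.03 ± 0.037, edgeR adjusted p = 0.522). The scarce mtl-1 went from 4.46 CPM in WT to 0.0899 in PATR1, on 3 to 6 counts per library, and to 0.608 in UNC5. Of 5 epidermis markers, 4 fell and 0 rose in PATR1 and 3 fell and 1 rose in UNC5, with sums of 997.5 to 1000.4 CPM in PATR1, 574 to 591 CPM in UNC5 and 1163 to 1172 CPM in WT. The epidermis sum in UNC5 was set by col-19, an adult collagen gene, with 776.8 CPM in PATR1, 331.5 CPM in UNC5 and 894.4 CPM in WT on average. dpy-7, a cuticle collagen gene, had 40.8 CPM in PATR1, 88.9 CPM in UNC5 and 52.8 CPM in WT and rose in UNC5, where elt-3 did not pass (-0.01 ± 0.043, adjusted p = 0.815). Neuron markers summed to 366.4 to 372.6 CPM in PATR1, 473.6 to 476.4 CPM in UNC5 and 396 to 427.5 CPM in WT. Germline markers were higher in PATR1, at 1994 to 2012 CPM, than in UNC5, at 1345 to 1365 CPM, or in WT, at 1205 to 1251 CPM. Sperm markers summed to 223.6 to 229.1 CPM in PATR1, 68.6 to 71.5 CPM in UNC5 and 310.4 to 328.5 CPM in WT, and body wall muscle markers to 5597 to 5877 CPM in PATR1, 7959 to 8192 CPM in UNC5 and 7826 to 8317 CPM in WT. By the adjusted p alone, all 5 muscle markers fell in PATR1, while 4 rose and 1 fell in UNC5. The muscle marker that fell in UNC5, unc-54, held much of the sum (3670 CPM in UNC5 and 4322 CPM in WT on average). Of 5 neuron markers, 1 rose and 3 fell in PATR1, and 3 rose and 0 fell in UNC5. All 5 germline markers rose in PATR1, and 3 rose and 2 fell in UNC5. All 5 sperm markers fell in each. The part of these tissues in the change of the pals genes was not tested.

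Other genes within the bounds of the clusters moved too. Of 11 tested ones, 5 were called lower and 1 higher in PATR1 and 5 lower and 0 higher in UNC5. Of all tested genes, 10.5% were called lower and 6.02% higher in PATR1, and 13.7% lower and 7.09% higher in UNC5. All were chosen after their values were seen: C29F9.2, C17H1.2, nhr-280, T27E7.9 and WBGene00045188 were the lower ones in each, and Y26D4A.21 was the higher one (1.09). WBGene00045188 shares 170 bases of exon with pals-26, and C17H1.2 shares 114 with pals-13, on the same strand. C17H1.2, nhr-280 and T27E7.9 averaged 0.0935 to 0.168 CPM in the mutant groups, under the filter's cut-off of 0.2161 CPM. Their place among the tested genes thus rests on the WT libraries. C29F9.2 lies between pals-23 and pals-22, on the strand of pals-22. It had 4.56 ± 0.0762 CPM in PATR1, 5.99 ± 0.469 CPM in UNC5 and 21.8 ± 1.42 CPM in WT (SD, n = 3 each), and was called lower in each mutant group while the pals genes around it were not (log2 fold changes -2.26 and -1.86, edgeR adjusted p = 3.8e-24 and 2.0e-22).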

How the data were processed

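The authors deposited a table of unnormalised counts for each library, produced with FastQC 0.11.9, cutadapt 3.5 and STAR 2.7.11b on WBcel235, per the submitters' processing notes; the design text names WS288. The column counted on the reverse strand was taken, since it held 41.9 to 57.1 times as many reads as the forward column. Reads not given to a gene were kept out of library sizes and tests: unmapped (0.621% to 6.02% of reads), multimapping (3.12% to 4.96%), outside genes (0.582% to 1.32%) and ambiguous (1.07% to 1.23%). Symbols came from the gene name table given with the reference.

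Genes passing filterByExpr of edgeR 4.0.16 (17512) were scaled with TMM factors and fitted over all 9 libraries with genotype as the only term, in R 4.3.3, by robust quasi-likelihood, tested on simulated data. Adjusted p-values are Benjamini-Hochberg over all genes tested. The SE of a log2 fold change is its size over the square root of the F statistic. Values in every library are given for pals-22, pals-25, pals-17, pals-20, pals-16 and pals-5, and for up to 8 called genes per comparison with the largest change and at least 0.5 CPM over the groups compared. Of each list outside the family, up to 4 genes with the smallest adjusted p per comparison were to be named, and the text adds others from the same lists. The members, lists and rules were chosen with earlier results of these data known. Alternatives used DESeq2 1.42.0, RLE factors, other filters, unstranded counts, fewer libraries and a replicate block. Python 3.11.15 with pandas 2.3.3 and matplotlib 3.10.9 made tables and plots. Promoter and protein sequences were not analysed here.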

Additional observations from a re-analysis of the deposited data

Results flagged for a closer look

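The changes against WT differed between PATR1 and UNC5 by the direct test, with more than a 2-fold difference, in pals-28 (log2 fold change of PATR1 against UNC5 -2.57), pals-15 (-1.27), pals-32 (-1.24) and pals-29 (-1.16). Passing changes of opposite sign were seen in pals-1, which had 1.55 ± 0.198 CPM in PATR1, 2.74 ± 0.246 CPM in UNC5 and 1.95 ± 0.0948 CPM in WT (-0.34 ± 0.13 in PATR1 and 0.49 ± 0.11 in UNC5, direct difference -0.82), and in pals-19, which had 2.89 ± 0.373 CPM in PATR1, 5.05 ± 0.225 CPM in UNC5 and 4.33 ± 0.488 CPM in WT (-0.59 ± 0.1 in PATR1 and 0.22 ± 0.093 in UNC5, direct difference -0.82). The rise of pals-19 in UNC5 (edgeR adjusted p = 0.0311) was near the median of all tested genes there, 0.16. With RLE factors that median was 0.06. Whether the passes of pals-1 and pals-19 hold under other settings was not examined.

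Reads on the strand opposite to a pals gene were left out of the main comparisons and entered only the alternative with unstranded counts. Over pals-5 they outnumbered those on its own strand in the 9 libraries together, with 475 against 159 counts. Their level over pals-5 was 1.81, 1.19 and 1.29 CPM in PATR1 (mean 1.43), 1.02, 1.16 and 1.2 CPM in UNC5, and 0.219, 1.17 and 0.888 CPM in WT, where WT replicate 1 was lowest. All PATR1 libraries lay above the WT libraries, by little in the closest pair. The annotation has only a piRNA on that strand over the exons of pals-5. Over pals-39, opposite-strand reads were at 0.809 ± 0.0945 CPM in PATR1, 1.84 ± 0.116 CPM in UNC5 and 1.51 ± 0.058 CPM in WT, and all UNC5 libraries lay above WT. These differences were not tested.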

How the results depend on the processing

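The count of pals genes called against WT was 17 in each mutant group, all lower. It was 16 to 18 with DESeq2, unstranded counts, RLE factors, unscaled library sizes, all genes kept or only the 6 libraries compared, and 13 in each with at least 1 CPM in 3 libraries, which left 25 pals genes. Leaving out a library gave 17 to 18 for PATR1, 16 to 17 for UNC5 and 2 to 4 for PATR1 against UNC5. With the adjusted p alone, 28, 26 and 20 pals genes passed in PATR1 against WT, UNC5 against WT and PATR1 against UNC5, where the rule itself drops the fold limit. The last comparison, with 4 calls, had 2 without a low-count filter, 2 with DESeq2 and 1 with only its 6 libraries, where fewer pals genes were tested (26). pals-15 in UNC5 (-1.04) lost its call with unstranded counts (-0.81), without UNC5 replicates 1 (-0.97) or 3 (-0.95) and without WT replicates 2 (-0.91) or 3 (-0.98), each by the fold limit. In PATR1, pals-3 gained a call without PATR1 replicate 1 (-1.09), and pals-31 without PATR1 replicate 3 or with library sizes alone (-1.02). pals-28 moved to -5.94 against WT and -3.27 against UNC5 without PATR1 replicate 1.

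Signs turned in changes that had not passed the test. Against WT these were pals-25 in PATR1 without WT replicate 3 (0.014; -0.15 to 0.014 over left-out libraries), and pals-20 with unstranded counts, in PATR1 (0.18) and UNC5 (-0.018). For PATR1 against UNC5 they were pals-20 (0.20) and pals-5 (-0.35) with unstranded counts, pals-16 without a low-count filter (0.022), pals-26 without PATR1 replicate 1 (-0.014), pals-30 without the filter (0.020) or UNC5 replicate 3 (0.017), and pals-2 with RLE factors (0.033), without the filter (0.13), with DESeq2 (0.032), and without PATR1 replicate 2 (0.16) or UNC5 replicates 1 (0.013) or 3 (0.17). Over left-out libraries pals-2 ranged from -0.22 to 0.17 and pals-30 from -0.25 to 0.017. Of 807 values for single genes, 760 kept their direction and side of an adjusted p of 0.05, 29 lost the pass, 3 gained it and 15 turned. The cause was not tested except where named. With library sizes alone the median of all genes moved to -0.23 for PATR1 and 0.11 for UNC5 against WT, and with RLE factors to -0.16 and 0.06. Same-numbered libraries deviated with correlations of -0.073 to 0.073, and 5 of 18 matches were best with the own number. All 5 lay between PATR1 and UNC5, whose same-numbered correlations were 0.073, 0.0099 and 0.048. No pairing by number was seen with WT. Whether the numbers pair PATR1 with UNC5 is not settled by correlations this small. The replicate block gave 17, 17 and 4 calls. Members under about 20 counts per library, such as pals-28 and pals-29 in the mutant groups, are limited by counting error.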

Other observations

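Opposite-strand reads over pals-38, which has no annotated gene on that strand over its exons, were 39.1% of all reads on both strands of the gene over the 9 libraries. They stood at 1.64 ± 0.182 CPM in PATR1, 2.76 ± 0.186 CPM in UNC5 and 2.67 ± 0.151 CPM in WT (SD, n = 3 each), while reads on its own strand were at 1.16 ± 0.172 CPM in PATR1, 1.45 ± 0.104 CPM in UNC5 and 7.19 ± 0.262 CPM in WT. The opposite-strand libraries of UNC5 and WT overlapped. Over pals-20, opposite-strand reads made up 93.3% of the reads, and its exons overlap those of Y82E9BR.5 there.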
